A study of Mus musculus with 6 samples.

Results

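Transglutaminase 2 (Tgm2), the 5 lysyl oxidases (Lox, Loxl1, Loxl2, Loxl3 and Loxl4) and the 3 lysyl hydroxylases (Plod1, Plod2 and Plod3) were read by symbol from a table of RNA levels in mouse embryonic fibroblasts (MEFs). All 9 symbols had a row among the 26231 genes of the table. Tgm2 drew attention because it was among the genes with the largest positive difference between the 2 MEF lines of the study, and the other enzymes were joined to it by their function. The set was thus selected on the log2 difference of Tgm2 between the lines, and that difference is given for all 9 genes as a description, with no test. The study asked how loss of Merlin, the tumor suppressor protein encoded by Nf2, changes the transcriptome. Both lines came from FVB embryos of about 14 days per the labels, were homozygous for a floxed Nf2 allele (Nf2 fl/fl) and were immortalized with the large T antigen of the SV40 virus. The line labelled WT (control) then received a lentivirus with GFP under a CMV promoter, and the line labelled Nf2 KO received a lentivirus with Cre and GFP under the same kind of promoter. Cells of both lines stood without serum for 24 h before RNA was taken. Each line gave 3 libraries, which carry the replicate numbers 1, 2 and 3 and, in the same order, the marks A, B and 2018. There is 1 line of each kind, and nothing states that the 3 replicates were separate cultures, so p-values measure only the spread between these libraries, which may be technical.

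The enzymes act at successive steps of matrix assembly. Lysyl hydroxylases work in the endoplasmic reticulum, where they hydroxylate lysine residues of procollagen, PLOD1 in the triple helix and PLOD2 in the telopeptides. PLOD3 also transfers glucose to galactosylhydroxylysine. Lysyl oxidases are copper enzymes that act outside the cell and turn lysine and hydroxylysine of collagen, and lysine of elastin, into aldehydes that condense into covalent cross-links. Transglutaminase 2 joins glutamine to lysine side chains, binds fibronectin and integrins at the cell surface, and inside the cell also binds GTP. Fibroblasts are a main source of all 3 kinds of enzyme.

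The coding stretches around the catalytic residues are shown because they set the 3 families apart and show how alike the paralogs are around these residues. Each is 45 bases of the longest coding transcript in GENCODE vM21 (GRCm38), written 5′ to 3′ on the coding strand. In Tgm2 the capitals mark the codon of the catalytic cysteine, residue 277, in exon 6. In the lysyl oxidases they mark the codons of the 3 histidines that bind copper, and in the lysyl hydroxylases those of a histidine and an aspartate that bind iron.
Tgm2: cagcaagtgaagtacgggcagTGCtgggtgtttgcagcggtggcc
Loxl1: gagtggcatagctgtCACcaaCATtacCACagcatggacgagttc
Loxl2: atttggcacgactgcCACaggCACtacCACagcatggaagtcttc
Loxl3: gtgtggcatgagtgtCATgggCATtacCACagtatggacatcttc
Loxl4: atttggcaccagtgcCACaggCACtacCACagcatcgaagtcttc
Plod1: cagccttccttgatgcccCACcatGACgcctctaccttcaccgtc
Plod2: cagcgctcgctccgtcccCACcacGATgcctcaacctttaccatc
Plod3: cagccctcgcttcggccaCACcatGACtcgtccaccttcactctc
The stretches lie at chr2:158131338-158131382 (minus strand) for Tgm2, chr9:58293705-58294378 (minus) for Loxl1, chr14:69682319-69689052 (plus) for Loxl2, chr6:83049998-83050140 (plus) for Loxl3 and chr19:42598792-42599896 (minus) for Loxl4. Each of the 4 lysyl oxidase stretches is split by an intron. Those of the lysyl hydroxylases lie within 1 exon each, at chr4:147913256-147913300 (minus) for Plod1, chr9:92606809-92606853 (plus) for Plod2 and chr5:136994978-136995022 (plus) for Plod3. Loxl2 and Loxl4 share 42 of the 45 bases, and the other pairs of lysyl oxidases shown share 29 to 34. The lysyl hydroxylases share 32 or 33 bases per pair. The stretch of Lox is not shown here.

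The table is read as RPKM, a read number per exon length and library depth, which lets the level of one gene be set beside that of another. The smallest steps between values put the libraries at 13453616 to 73051737 reads, with replicate 3 of both lines the deepest, and at these depths the 9 enzymes rest on between 196 reads (the fewest, for Tgm2) and 119211 reads (the most, for Lox) per library. Nf2 itself was 14.3, 13.7 and 13.1 RPKM in WT (control) and 15.4, 12.9 and 13.9 RPKM in the libraries labelled Nf2 KO (log2 difference 0.033, standard error 0.096, adjusted p = 0.987 from limma). Its RNA thus did not separate the lines, and each direction given here follows the labels. The fibroblast markers Col1a1, Col1a2 and Vim were high in every library, whereas Lum and Fap, markers of stromal fibroblasts, stayed under 1 RPKM in all 6. Macrophage, endothelial and epithelial markers were nearly absent, with 18 of 20 under 1 RPKM in every library. The exceptions were Cd68 (5.08 to 8.10 RPKM), which fibroblasts also express, and Kdr (1.32 to 4.39 RPKM). In bulk RNA, fewer cells that express a gene cannot be told apart from less RNA per cell.

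Tgm2 was the lowest of the 9 enzymes in the control line. The gene (GRCm38 chromosome 2, minus strand) spans 158116402 to 158146436. Its level was 3.16, 4.14 and 2.81 RPKM in WT (control) replicates 1, 2 and 3, and 19.9, 9.59 and 24.3 RPKM in the libraries labelled Nf2 KO. All 3 libraries labelled Nf2 KO lay above the control libraries, and replicate 2, the highest of the controls, was the lowest of the libraries labelled Nf2 KO. The means were 3.37 ± 0.689 and 17.9 ± 7.53 RPKM (SD, n = 3 each), a ratio of 5.31. On the log2(RPKM + 1) scale the difference was 2.03 (standard error 0.32), and within same-numbered replicates it was 2.33, 1.04 and 2.73. The spread between the libraries labelled Nf2 KO was thus wide, and the replicate 2 pair gave the smallest of the 3 differences. Without replicate 2 of both lines the difference was 2.53, and without replicate 3 it was 1.69. Of the 4608 exon bases of Tgm2, 1003 also lie in genes of the opposite strand, Rprd1b and Gm20412. Strand use in the counting is not given in the sources used here. Rprd1b itself was 7.51, 7.91 and 7.35 RPKM in WT (control) and 8.95, 9.01 and 8.61 RPKM in the libraries labelled Nf2 KO, higher without overlap as Tgm2 was, and its part in the values of Tgm2 was not tested.

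**Figure D1:**
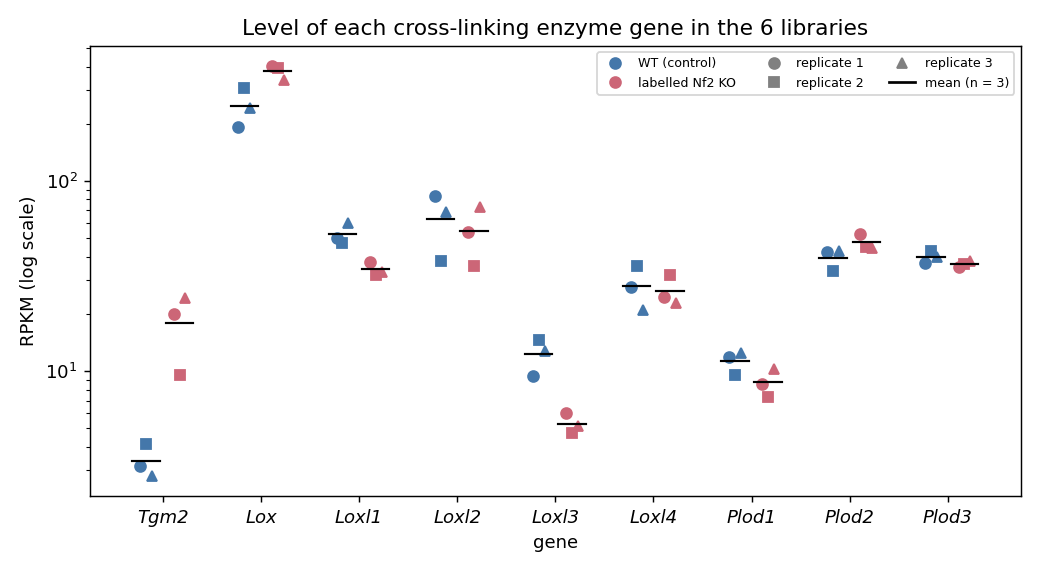
Level of each of the 9 genes in RPKM (log axis) in every library, with blue for WT (control), red for the libraries labelled Nf2 KO, the symbol for the replicate number and a black line for the mean of 3. Tgm2 was between 2.81 and 4.14 RPKM in WT (control) and between 9.59 and 24.3 RPKM in the other line, while Loxl2 and Loxl4 overlapped between the lines.

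No other member of the transglutaminase family came near this level. Of 9 further family genes listed (Tgm1, Tgm3 to Tgm7, the factor XIII subunits F13a1 and F13b, and the inactive homolog Epb42), 7 had a row, and the highest value among them in any library was 0.0525 RPKM, for Tgm1, the keratinocyte enzyme. Tgm2 was therefore the only transglutaminase gene over 1 RPKM among the 8 in the table. The 5 genes whose profile over the 6 libraries was nearest to that of Tgm2, among 7023 others tested with a mean of at least 5 RPKM, were Aldh1a1, Pmp22, Ctla2a, Npr3 and Tgfb2. Likeness was the root mean square difference of log2(RPKM + 1) after each gene was centred on its mean, and it was 0.308 for Aldh1a1 and 0.407 for Tgfb2. Aldh1a1, a retinaldehyde dehydrogenase, was 7.86, 11.0 and 7.60 RPKM in WT (control) and 25.1, 19.65 and 42.2 RPKM in the libraries labelled Nf2 KO. As in Tgm2, its replicate 2 was the highest control and the lowest of the other line, a likeness for which it was picked. Replicate 2 was also the highest control for Npr3 and, narrowly, for Tgfb2. It was the lowest control for Pmp22 (9.30 RPKM) and not the highest for Ctla2a (19.95 RPKM, against 20.35 RPKM in replicate 3).

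Of the genes for proteins that bind transglutaminase 2 at the cell surface and in the matrix, 1 passed the test. All 10 genes of this list were tested, 7 had a lower and 3 a higher value (5763 of all 11067 genes tested had a lower value), and the median log2 difference was -0.38, against -0.008 over all genes. Fn1, which encodes fibronectin, passed the threshold (1.06% of all genes tested did so, 0.479% higher and 0.578% lower). It was 455.5, 477.5 and 490.9 RPKM in WT (control) and 307.3, 313.8 and 295.3 RPKM in the libraries labelled Nf2 KO, so that the lines did not overlap. Fn1 fell by 0.63 on the log2 scale (standard error 0.091), with an adjusted p from limma of 0.0390, or 0.0158 when the replicate number was a block. The call was kept without replicate 2 of both lines (adjusted p = 0.0485 from limma) and lost on leaving out replicate 1 or replicate 3 of both lines or any single library (adjusted p = 0.07095 to 0.5895), while the log2 difference stayed between -0.67 and -0.58. With all 6 libraries it was also lost with quantile normalization (adjusted p = 0.0625 from limma) and with no filter on low values (adjusted p = 0.134 from limma).
Once the replicate block was added, 2 more of the 10 passed, both lower (7.53% of all genes tested passed in that fit, 2.99% higher and 4.54% lower). Itgb3, the integrin β3 chain, went from 2.51 ± 0.358 to 1.495 ± 0.142 RPKM (SD, n = 3 each, blocked adjusted p = 0.0391 from limma, 0.168 without the block). Mfge8, a secreted glycoprotein that binds integrins, went from 42.6 ± 3.33 to 33.9 ± 2.88 RPKM (SD, n = 3 each, blocked adjusted p = 0.0379 from limma, 0.331 without the block). Expressed per 100 units of fibronectin RNA, Tgm2 was 0.694, 0.8675 and 0.573 in WT (control) and 6.47, 3.05 and 8.22 in the libraries labelled Nf2 KO.

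Lox was the most abundant of the 9 enzymes in both lines, and it was higher in the libraries labelled Nf2 KO. The gene (chromosome 18, minus strand) spans 52516067 to 52529867. Lox was 192, 310 and 242 RPKM in WT (control) and 401, 392 and 342 RPKM in the libraries labelled Nf2 KO. The lines did not overlap, but the highest control, replicate 2, came close to the lowest library of the other line. The ratio of means was 1.52, and the differences within same-numbered replicates were 1.055, 0.34 and 0.49 on the log2 scale (estimate 0.63, standard error 0.18). Loxl1, a lysyl oxidase known for its part in elastic fibres, differed in the other direction. Loxl1 (chromosome 9, minus strand, 58287738 to 58313186) was 50.4, 47.3 and 59.9 RPKM in WT (control) and 37.5, 32.0 and 33.2 RPKM in the libraries labelled Nf2 KO. All 3 pairs were lower, by 0.42, 0.55 and 0.83 on the log2 scale (log2 estimate -0.60, standard error 0.12).

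Loxl3 had the largest negative difference of the 9. The gene (chromosome 6, plus strand, 83034173 to 83052562) encodes an enzyme with scavenger receptor domains before its catalytic domain, as do Loxl2 and Loxl4. It was 9.46, 14.6 and 12.7 RPKM in WT (control) and 6.01, 4.72 and 5.17 RPKM in the libraries labelled Nf2 KO. The lines did not overlap, and the ratio of means was 0.432 (log2 difference -1.06, standard error 0.17). The pairs differed by -0.58, -1.45 and -1.15 on the log2 scale, smallest in replicate 1, and without replicate 1 of both lines the estimate was -1.30. Of its 4603 exon bases 535 also lie in Htra2, on the opposite strand. Htra2 was 18.0 to 28.6 RPKM and was not lower in the libraries labelled Nf2 KO (21.95, 28.6 and 26.3 RPKM, against 18.0, 21.9 and 22.55 RPKM in WT (control)). The part of Htra2 in the values of Loxl3 was not tested.

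Loxl2 and Loxl4 did not separate the lines. Loxl2 (chromosome 14, plus strand, 69609068 to 69695834) was 83.2, 38.1 and 68.3 RPKM in WT (control) and 54.1, 35.7 and 73.3 RPKM in the libraries labelled Nf2 KO. Loxl4 (chromosome 19, minus strand, 42593982 to 42612813) was 27.6, 35.7 and 20.9 RPKM in WT (control) and 24.5, 32.2 and 22.9 RPKM in the libraries labelled Nf2 KO. In both lines replicate 2 was the extreme value, lowest in Loxl2 and highest in Loxl4. Their log2 differences, -0.20 (standard error 0.35) and -0.064 (standard error 0.22), were less than the spread between replicates, and both turned sign in some fits without a library: Loxl2 was 0.031 without WT (control) replicate 1 and 0.068 without the library labelled Nf2 KO replicate 2, and Loxl4 was 0.12 without WT (control) replicate 2 and 0.031 without the library labelled Nf2 KO replicate 3. Loxl2 has a near copy, the predicted gene Gm21451, and 46.2% of the 31-base stretches of its transcripts are found elsewhere, so the share of reads credited to Loxl2 is uncertain. Gm21451 itself was listed at 0.228 to 1.66 RPKM. Read on the coding strand only, the other 8 enzymes shared at most 1.5% of such stretches. Overlap with genes of the opposite strand, as given above for Tgm2 and below or above for others, is not in this share. For Tgm2 1003, for Loxl3 535 and for Plod3 538 exon bases also lie in other genes, all or most of them on the opposite strand. The part of these overlaps in the values was not tested.

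The make-up of the lysyl oxidase family differed between the lines. Lox held 53.0%, 69.6% and 60.0% of the summed RPKM of the 5 lysyl oxidases in WT (control) and 76.6%, 78.9% and 71.7% in the libraries labelled Nf2 KO. The lines did not overlap in this share (60.85% ± 8.335 and 75.8% ± 3.67, SD, n = 3 each). However, WT (control) replicate 2 came close to the library labelled Nf2 KO replicate 3. The sum includes Loxl2, whose share of reads is uncertain, and the difference in share was not tested. The sum of the other 4 was 171, 136 and 162 RPKM in WT (control) and 122, 105 and 135 RPKM in the libraries labelled Nf2 KO. In order of mean level in the control line came Lox, Loxl2, Loxl1, Plod3, Plod2, Loxl4, Loxl3, Plod1 and Tgm2. Library ranges overlapped between the neighbours Loxl2 and Loxl1, Plod3 and Plod2, Plod2 and Loxl4, and Loxl3 and Plod1. In the libraries labelled Nf2 KO the order was Lox, Loxl2, Plod2, Plod3, Loxl1, Loxl4, Tgm2, Plod1 and Loxl3. Here Tgm2 stood above Plod1 and Loxl3 rather than last, and ranges overlapped between Loxl2 and Plod2 and between every neighbouring pair from Plod3 to Plod1.

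**Figure D2:**
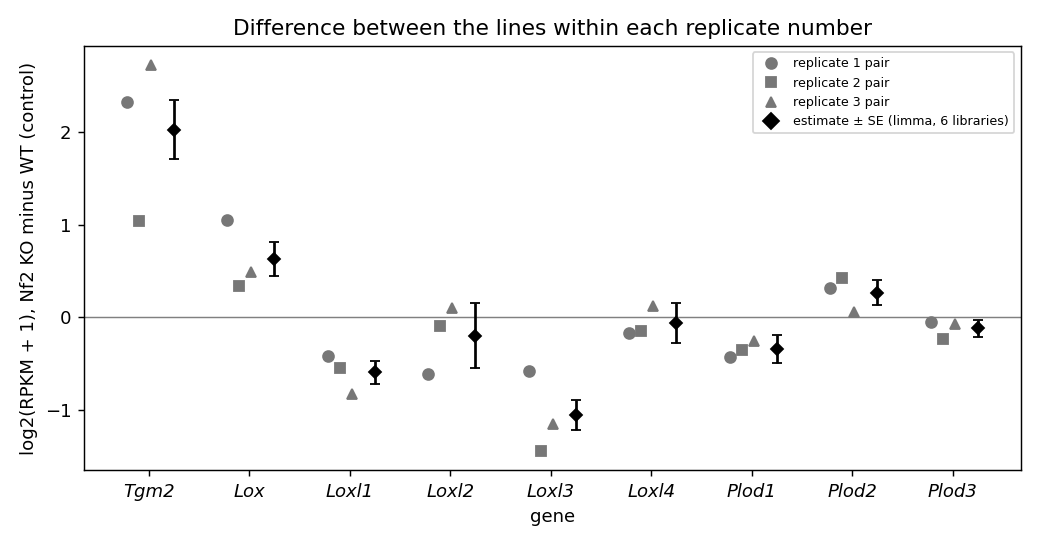
Difference between the lines on the log2(RPKM + 1) scale for each gene, with grey symbols for the 3 same-numbered pairs of libraries and a black diamond with its standard error for the estimate over 6 libraries. Tgm2 (1.04 to 2.73) and Lox were above 0 in all 3 pairs, Loxl1 and Loxl3 were below 0 in all 3, and Loxl2 and Loxl4 fell on both sides.

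The list of genes that mature the lysyl oxidases held proteinases that cleave the propeptide (Bmp1, Tll1, Tll2), their enhancers (Pcolce, Pcolce2), matrix proteins that bind lysyl oxidases (Fn1, Postn, Efemp2, Fbln5) and copper carriers (Atp7a, Atox1, Slc31a1, Ccs). Of 13 genes 12 were tested, 4 with a higher and 8 with a lower value, and their median log2 difference was -0.10. Fn1, described above, was the 1 gene of the 12 that passed without the block, beside 1.06% of all genes tested. With the block 2 more passed, both lower, which makes 3 of 12 beside 7.53% of all genes tested. Bmp1, the main procollagen C-proteinase, was 10.8, 8.58 and 10.7 RPKM in WT (control) and 8.74, 6.80 and 8.31 RPKM in the libraries labelled Nf2 KO (blocked adjusted p = 0.0414 from limma, 0.532 without the block). Pcolce2, an enhancer of that proteinase, was 2.36, 5.12 and 2.06 RPKM in WT (control) and 0.681, 2.20 and 0.917 RPKM in the libraries labelled Nf2 KO (blocked adjusted p = 0.00849 from limma, 0.449 without the block). In both genes the lines overlapped but each same-numbered pair was lower. None of the 4 copper carriers passed in either fit.

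By the estimate over 6 libraries the lysyl hydroxylases differed less between the lines than Tgm2 or Lox, a ranking that was not tested. In the replicate 2 pair the log2 difference was 0.335 for Lox, 0.422 for Plod2 and -0.352 for Plod1. Plod2 (chromosome 9, plus strand, 92542223 to 92608428) was 42.2, 33.5 and 42.7 RPKM in WT (control) and 52.9, 45.2 and 44.5 RPKM in the libraries labelled Nf2 KO. The lines did not overlap, though the highest control and the lowest library of the other line lay close together (log2 difference 0.27, standard error 0.13). Plod1 (chromosome 4, minus strand, 147909753 to 147936767) was 11.9, 9.56 and 12.5 RPKM in WT (control) and 8.597, 7.27 and 10.3 RPKM in the libraries labelled Nf2 KO. Here the lines overlapped, but every same-numbered pair was lower, by 0.43, 0.35 and 0.25 on the log2 scale. Plod3 (chromosome 5, plus strand, 136987019 to 136996648) was 36.9, 43.0 and 39.9 RPKM in WT (control) and 35.5, 36.5 and 37.9 RPKM in the libraries labelled Nf2 KO, and the lines overlapped (log2 difference -0.12, standard error 0.094). The ratio of Plod2 to Plod1, which sets the telopeptide enzyme against that of the helix, was 3.54, 3.50 and 3.43 in WT (control) and 6.155, 6.215 and 4.32 in the libraries labelled Nf2 KO. The 3 control ratios lay within a narrow range, below all 3 of the other line. The summed RPKM of the 3 hydroxylases was 90.7 ± 4.52 and 92.9 ± 4.04 (SD, n = 3 each) and overlapped between the lines.

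Over the 9 enzymes, 5 had lines that did not overlap, Tgm2, Lox and Plod2 higher and Loxl1 and Loxl3 lower in the libraries labelled Nf2 KO, beside 15.1% of all genes tested (7.6% higher and 7.52% lower). In 7 of the 9 the 3 same-numbered pairs had the same sign, beside 46.9% of all genes tested. The means of the replicate numbers spanned more than the difference between the lines in 5 of the 9, beside 79.4% of all genes tested. The members came from this contrast, and nothing is read from these shares. The median log2 difference of the 9, all of which passed the filter on low values, was -0.12.

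The list of lysyl hydroxylase partners and collagen chaperones held Fkbp10 and Ppib, prolyl isomerases of the endoplasmic reticulum, P3h3 and P3h4, which form a complex with PLOD1, the galactosyltransferase Colgalt1, and Serpinh1, the collagen chaperone HSP47. Of its 11 genes 10 were tested and 0 passed, with or without the block (0 also at an unadjusted p under 0.05 from limma), with a median log2 difference of 0.050. Serpinh1, the most abundant, was 228, 220 and 269 RPKM in WT (control) and 298, 220 and 374 RPKM in the libraries labelled Nf2 KO, which overlapped. Of the 7 prolyl hydroxylase genes, which include the subunits of prolyl 4-hydroxylase, 7 were tested and 0 passed in either fit (0 at an unadjusted p under 0.05 from limma). Over all genes tested 1.06% passed without the block and 7.53% with it, so that counts of 0 in lists of this size do not set them apart. P4hb, their shared β subunit, was 343 ± 9.77 and 346 ± 45.7 RPKM (SD, n = 3 each).

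Whether the 9 enzymes varied with the replicate number was tested apart from the line, with limma's F test and the line as a term. In this balanced design the replicate number is independent of the difference that drew attention to Tgm2. Of the 9 genes 3 passed, Loxl2, Loxl4 and Plod1, beside 21.2% of all genes tested. Loxl2 was 0.59 below its mean in replicate 2 on the log2 scale, both lines averaged, and 0.26 and 0.33 above it in replicates 1 and 3 (adjusted p = 0.0326 from limma). Loxl4 was 0.33 above its mean in replicate 2 and 0.044 and 0.28 below it in replicates 1 and 3 (adjusted p = 0.0272 from limma). Plod1 was 0.22 below its mean in replicate 2 (adjusted p = 0.0428 from limma), a call that was lost in 13 of 16 alternatives. Tgm2 did not pass (adjusted p = 0.645 from limma). Its means over both lines spanned 0.41 between the replicate numbers, against 2.03 between the lines, the difference that drew attention to it. The average over both lines hides that replicate 2 of Tgm2 was the highest control and the lowest of the other line.
Of 16 alternatives, the call was lost in 5 for Loxl2 and in 6 for Loxl4. With all 6 libraries both calls were lost with the line left out of the model and with no filter. When libraries were left out, both calls rested mainly on the replicate 2 libraries. Without replicate 2 of both lines the adjusted p from limma was 0.928 for Loxl2 and 0.631 for Loxl4, without WT (control) replicate 2 it was 0.201 and 0.164, and without the library labelled Nf2 KO replicate 2 it was 0.156 and 0.126. Leaving out WT (control) replicate 3 gave 0.0517 for Loxl4 (limma). Over the table as a whole 0 of 11067 genes passed without replicate 2 of both lines (921 at an unadjusted p under 0.05 from limma).
Some contractile genes also varied with the replicate number. Of the 6 smooth muscle markers 4 were tested and 3 passed between replicate numbers, beside 21.2% of all genes tested. Other lists held such genes too, among them 5 of 11 tested fibrillar collagen and elastic fibre genes and 4 of 8 tested fibroblast markers. The 6 smooth muscle markers summed to 475, 2475 and 750 RPKM in WT (control) and 802, 2836 and 1165 RPKM in the libraries labelled Nf2 KO, highest in replicate 2 of both lines, and most of this was Acta2 and Tagln. The defining smooth muscle gene Myh11 stayed under 1 RPKM in all 6 libraries, as did Des. The part of the smooth muscle markers in the values of Loxl2 and Loxl4 was not tested.

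**Figure D3:**
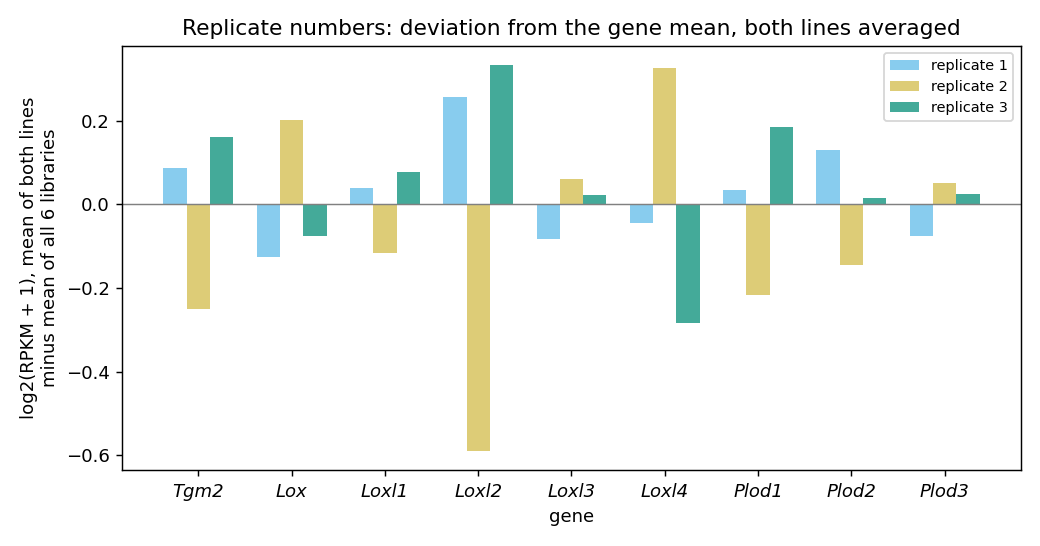
Deviation of each replicate number from the gene's mean over 6 libraries on the log2(RPKM + 1) scale, averaged over both lines, with 1 bar per replicate number. Loxl2 in replicate 2 had the longest bar, 0.59 below its mean, and Loxl4 was 0.33 above its mean there, while Loxl3 and Plod3 had short bars.

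Values of the substrates of the cross-linking enzymes were higher for some genes and lower for others. Of 18 fibrillar collagen and elastic fibre genes 11 were tested, 3 with a higher and 8 with a lower value, with a median log2 difference of -0.31. None passed without the block (4 at an unadjusted p under 0.05 from limma, as had 1097 of all 11067 genes tested), and 4 passed with it, beside 7.53% of all genes tested. Col11a1, a minor fibrillar chain that sets fibril diameter, was 6.11, 4.36 and 9.23 RPKM in WT (control) and 29.55, 10.7 and 30.2 RPKM in the libraries labelled Nf2 KO (log2 difference 1.61, blocked adjusted p = 0.0115 from limma, 0.205 without the block). Col5a3, a chain of collagen V, was 9.69, 5.24 and 7.28 RPKM in WT (control) and 2.71, 2.78 and 2.61 RPKM in the libraries labelled Nf2 KO (log2 difference -1.15, blocked adjusted p = 0.0173 from limma, 0.0553 without the block). In neither gene did the lines overlap. Col3a1, the chain of collagen III, was 82.0, 15.3 and 82.1 RPKM in WT (control) and 54.7, 6.95 and 29.8 RPKM in the libraries labelled Nf2 KO, with replicate 2 lowest in both lines (blocked adjusted p = 0.0274 from limma, 0.890 without the block). Col1a1, the most abundant substrate, was 581 ± 139 and 436 ± 153 RPKM (SD, n = 3 each) and passed in neither fit. Eln, which encodes elastin, was at most 0.0550 RPKM in any library, whereas Fbn1, which encodes the microfibril protein fibrillin 1, was 30.8 ± 1.91 RPKM in WT (control) and 29.1 ± 3.03 RPKM in the libraries labelled Nf2 KO (SD, n = 3 each).

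Genes known to be induced with these enzymes were listed as well, since LOX and PLOD2 respond to hypoxia and TGM2 to retinoic acid. Of 19 hypoxia response genes 18 were tested, 15 with a lower and 3 with a higher value (5763 of all 11067 genes tested had a lower value), and their median log2 difference was -0.29. None passed without the block (8 at an unadjusted p under 0.05 from limma, as had 1097 of all genes tested), and with it 7 passed lower and 1 higher, beside 4.54% and 2.99% of all genes tested. Bnip3, a mitophagy receptor, was 19.7, 8.36 and 15.3 RPKM in WT (control) and 7.15, 4.78 and 7.10 RPKM in the libraries labelled Nf2 KO (blocked adjusted p = 0.0146 from limma, 0.262 without the block). Pdk1, a kinase that holds back pyruvate dehydrogenase, went from 2.55 ± 1.11 to 1.12 ± 0.308 RPKM (SD, n = 3 each, blocked adjusted p = 0.0263 from limma, 0.386 without the block). The gene that passed in the other direction was Adm, the peptide hormone adrenomedullin, at 11.3, 14.0 and 19.3 RPKM in WT (control) and 27.0, 23.3 and 34.1 RPKM in the libraries labelled Nf2 KO (blocked adjusted p = 0.0126 from limma, 0.169 without the block).
Of 11 retinoic acid response genes 6 were tested, 3 with a higher and 3 with a lower value. None passed without the block (1 at an unadjusted p under 0.05 from limma, as had 1097 of all 11067 genes tested), and 3 passed with it, beside 7.53% of all genes tested. Cyp26b1, which degrades retinoic acid, was 1.86, 1.23 and 1.54 RPKM in WT (control) and 4.02, 2.35 and 3.855 RPKM in the libraries labelled Nf2 KO (blocked adjusted p = 0.0114 from limma, 0.168 without the block). Crabp2, which carries retinoic acid to its receptors, went in the other direction, from 10.7, 1.04 and 7.89 RPKM to 3.43, 0.431 and 3.86 RPKM (blocked adjusted p = 0.0375 from limma, 0.873 without the block).

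**Figure D4:**
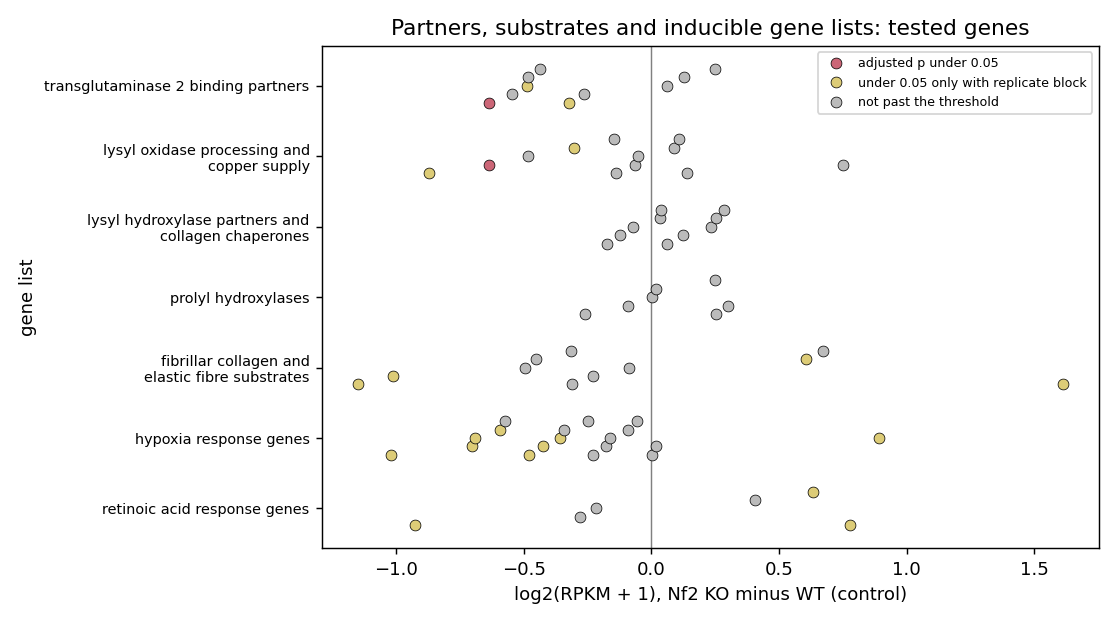
Difference between the lines on the log2(RPKM + 1) scale for every tested gene of 7 lists, with 1 point per gene, red for genes past the adjusted p threshold of 0.05, yellow for genes past it only with the replicate block and grey for the rest. Red marks only Fn1, which stands in 2 lists, and Col11a1 lies farthest to the right at 1.61.

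Part of the fibroblast marker list also differed between the lines. Of its 10 genes 8 were tested and 3 passed, all lower in the libraries labelled Nf2 KO (0.578% of all genes tested were called lower). Pdgfra, a receptor of platelet-derived growth factor, was 12.3, 5.225 and 11.7 RPKM in WT (control) and 1.42, 0.657 and 0.962 RPKM in the libraries labelled Nf2 KO (log2 difference -2.355, adjusted p = 0.0329 from limma). S100a4, a calcium-binding protein, fell from 684 ± 62.9 to 297.5 ± 59.0 RPKM (SD, n = 3 each, adjusted p = 0.0329 from limma), and Dcn, the collagen-binding proteoglycan decorin, from 2.73 ± 1.21 to 0.0906 ± 0.0563 RPKM (SD, n = 3 each, adjusted p = 0.0348 from limma). Thy1 passed only with the block (adjusted p = 0.00716 from limma, 0.178 without it). Pdgfrb, at 23.2 ± 12.2 and 24.2 ± 13.5 RPKM (SD, n = 3 each), passed in neither fit. Pdgfra and Dcn passed on leaving out replicate 2 of both lines or WT (control) replicate 2, and S100a4 also without the library labelled Nf2 KO replicate 3 (adjusted p = 0.0368 from limma). They were lost in the other 7, 7 and 6 of 9 such fits, with adjusted p up to 0.512 for Pdgfra, 0.530 for Dcn and 0.540 for S100a4 (limma). The summed level of the 10 markers was 1974 to 2699 RPKM in WT (control) and 1379 to 1916 RPKM in the libraries labelled Nf2 KO, and its part in the differences of the 9 enzymes was not tested.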

How the data were processed

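RNA from 6 MEF libraries was sequenced and analysed by GENEWIZ. The authors deposited 1 table with a value per gene and library, taken here as RPKM. The submitters' processing notes name mm10, which is GRCm38. The aligner, counting tool and unit are not given in the sources used here. The unit and depths were inferred: with exon lengths from GENCODE vM21 (25983 of 26231 genes), 86.1% to 87.6% of values of up to 20 reads lay within 0.1 read of a whole number (20.0% if spread evenly).

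The 11067 genes that reached 1 RPKM in 3 or more libraries were tested on log2(RPKM + 1), which understates the change of low genes, with limma 3.58.1 in R 4.3.3 (eBayes with trend and robust), two-sided, Benjamini-Hochberg adjusted over all genes, threshold 0.05, no covariate. Deviations of same-numbered libraries from the line means correlated at 0.552, 0.819 and 0.516 over genes. The numbers were therefore taken to pair the libraries, and blocked values are given beside each call they alter. The members and 13 other lists were chosen with earlier results of these data known. From each list were named the genes past the threshold, up to 3 past it only with the block, and the most abundant gene, except 1 gene that is not reported here. Genes outside this rule were chosen after their values were seen. Fits were tested on simulated data. Alternatives were other normalizations, filters and pseudocounts, the block and left-out libraries. Figures were drawn with matplotlib 3.10.9.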

Additional observations from a re-analysis of the deposited data

How the results depend on the processing

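The number of genes past the threshold between the lines, 117, was 833 with the replicate block, 9 with no filter (26231 genes tested) and 63 with a filter of 5 RPKM (7117 tested), and 0 to 484 when libraries were left out, with 0 on leaving out replicate 1 or replicate 3 of both lines (578 and 556 at an unadjusted p under 0.05 from limma). It stayed within 1.5 times under the other normalizations, the pseudocount of 0.1 and limma without trend and robust settings.

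With the replicate block the number past the threshold rose from 1 to 3 among transglutaminase 2 binding partners and from 1 to 3 among lysyl oxidase processing genes, and from 0 to 4 among substrates, 0 to 8 among hypoxia response genes, 0 to 3 among retinoic acid response genes and 0 to 1 among smooth muscle markers (Acta2). The block took the replicate differences out of the error. With quantile normalization the first pair of lists went to 0, and the cause was not tested. With no filter they also went to 0, as did the fibroblast markers (from 3), with more genes tested. Among substrates 1 gene passed with quantile normalization, median centring and the pseudocount of 0.1. When libraries were left out the counts ran from 0 to 1 for binding partners, 0 to 2 for processing genes, 0 to 4 for substrates, for hypoxia response genes and for fibroblast markers, 0 to 3 for retinoic acid response genes and 0 to 1 for macrophage markers.

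The log2 differences of the 9 enzymes moved by less than the spread between replicates in all fits with all 6 libraries. When libraries were left out they ran from 1.69 to 2.53 for Tgm2, 0.41 to 0.80 for Lox, -0.69 to -0.48 for Loxl1, -0.52 to 0.068 for Loxl2, -1.30 to -0.86 for Loxl3, -0.25 to 0.12 for Loxl4, -0.46 to -0.23 for Plod1, 0.16 to 0.37 for Plod2 and -0.17 to -0.063 for Plod3. Of the 3 enzymes past the threshold between replicate numbers, 0 passed with the line left out of the model or with no filter, and 0 to 3 when libraries were left out. Tgm2 had the fewest reads of the 9 in any library, 196 in the shallowest, a control library. Its highest read number, 8167, was above those of Loxl3 (3580) and Plod1 (5164).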
